A study of Mus musculus with 24 samples.

Results

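Odorant receptors are the largest family of G protein-coupled receptors in the mouse, and their genes carry the symbol Olfr. The receptor probes described here are the Olfr probes that gave a signal in the dorsal root ganglion (DRG), a tissue of somatosensory neurons, their satellite glia and Schwann cells. They were selected on their detection flags: a probe is a member if the scanner software flagged it as well above background in at least 12 of the 24 samples. This held for 153 of the 963 Olfr probes on the array (15.9%), which carry 150 of 917 Olfr gene names, out of 41174 probes in all. Because the flags chose the members, the number of members and their brightness are a description and were not tested.

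L4 and L5 DRGs came from adult male *Nfil3* KO mice, which lack the transcriptional repressor NFIL3 in every tissue after germline deletion with a Cre driven by a CMV promoter, and from wildtype (WT) littermates (C57BL/6J). In all mice the sciatic nerve was cut and the nerve endings were coaptated. DRGs of the injured side were taken at day 2 or day 5, and the control DRGs came from the non-injured side of operated mice, so no group was without surgery. There were 6 groups (WT control, WT day 2, WT day 5, KO control, KO day 2 and KO day 5) with 4 samples each, of which 2 were labelled with Cy3 and 2 with Cy5, on 12 arrays of 3 slides. The labels of KO control replicate 4 disagree, since 1 field names day 5, and its title and source name were followed.

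*Nfil3* itself was checked in every sample. The brighter *Nfil3* probe (A_52_P500027) measured 8.44 to 9.03 on the log2 scale in the 4 WT controls, 10.34 to 10.76 at day 2 and 10.64 to 11.08 at day 5. In the KO samples it measured 2.94, 3.80, 4.37 and 7.59 in the controls, 3.03 to 6.22 at day 2 and 2.82 to 5.81 at day 5. The value of 7.59 belongs to the library labelled KO control replicate 4, which lies below all WT controls and above every other KO sample. Markers of neurons, satellite glia, Schwann cells, macrophages, fibroblasts, endothelium and red blood cells were detected in all 24 samples, whereas the labels name neurons. Detection by itself does not show a cell type, since 4 of the 8 markers of olfactory sensory neurons on the array were also in all 24. The number of arrays limits the precision of all values below.

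An odorant receptor is a seven-helix membrane protein that signals in the nose through the G protein alpha subunit Gnal, adenylyl cyclase Adcy3 and a cyclic nucleotide-gated channel, and each olfactory sensory neuron normally expresses a single receptor gene from a single allele. The coding region of an Olfr gene usually lies within 1 exon, the genes sit in large genomic clusters of similar copies, and transcripts of some receptors are known outside the nose. Olfr78, for example, is known from the carotid body and the kidney, and Olfr1393 from the kidney.

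The probes are designed DNA oligos of 60 bases, and what a member means depends on its sequence. The following probes are shown with every C in capitals, because the share of Olfr probes that were members rose with the number of C bases. Olfr571 (chr7:110058002-110058061, minus strand, mm9) was the brightest member, and Olfr279 (chr15:98328602-98328661, plus strand) had the highest GC content among Olfr probes detected in all 24 samples. Olfr223 (chr11:59402962-59403021, minus strand), Olfr1065 (chr2:86285661-86285720, minus strand) and Olfr1386 (chr11:49283697-49283756, plus strand) differed after the lesion. Olfr1008 (chr2:85530377-85530436, plus strand) was in 0 of 24 samples and is shown as 1 of many such probes with a GC content of 35%. Single probes did not follow the order by C bases. Olfr1008 has 13 of them, and Olfr1065 and Olfr1386, both in 24 samples, have 12 each.
Olfr571: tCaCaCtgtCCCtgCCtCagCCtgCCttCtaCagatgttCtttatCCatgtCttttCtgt
Olfr279: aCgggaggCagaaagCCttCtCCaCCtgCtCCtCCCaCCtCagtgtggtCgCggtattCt
Olfr223: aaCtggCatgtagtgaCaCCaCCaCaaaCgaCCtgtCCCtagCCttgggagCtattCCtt
Olfr1065: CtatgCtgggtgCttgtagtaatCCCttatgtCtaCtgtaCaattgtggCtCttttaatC
Olfr1386: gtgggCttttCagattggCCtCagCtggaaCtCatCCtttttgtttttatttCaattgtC
Olfr1008: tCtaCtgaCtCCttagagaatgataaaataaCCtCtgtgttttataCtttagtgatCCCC

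Probes of the same gene show how far detection belonged to the probe. Olfr704 has 2 probes that overlap by 19 bases, shown in capitals. The probe at chr7:114008914-114008973 was well above background in 12 of 24 samples, and the probe at chr7:114008873-114008932 in 0 of 24. Olfr456 also has 2 overlapping probes, with 20 shared bases in capitals, at chr6:42436847-42436906 and chr6:42436887-42436946, and these were detected in 23 and in 21 samples.
Olfr704, 12 of 24 samples: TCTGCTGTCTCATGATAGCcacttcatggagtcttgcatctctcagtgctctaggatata
Olfr704, 0 of 24 samples: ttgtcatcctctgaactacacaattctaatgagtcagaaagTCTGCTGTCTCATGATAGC
Olfr456, 23 of 24 samples: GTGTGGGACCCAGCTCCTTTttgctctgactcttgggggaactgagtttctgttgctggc
Olfr456, 21 of 24 samples: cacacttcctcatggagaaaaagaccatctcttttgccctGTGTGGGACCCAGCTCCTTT

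In all, 11 member genes had a further Olfr probe of the same name on the array. In 3 genes (Olfr1393, Olfr279 and Olfr456) both probes were members. In the other 8 genes only 1 probe was a member, and in 6 of these 8 the second probe was in 0 of 24 samples. Of all 810 Olfr probes under 12 samples, 584 were in 0, a similar share. The contrast was complete for Olfr1372-ps1 and Olfr175-ps1, both named as pseudogenes, where 1 probe was in 24 samples and the other in 0. The member probe had the higher GC content in 6 of the 8 genes and the lower in 1. For Olfr1393, the kidney receptor, the probe at chr11:49094247-49094306 was in 24 samples, whereas the probe at chr11:49094504-49094563 was in 12, of which 11 were labelled with Cy3.

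Near copies were compared in the same way, among the probes of the array only. Similar sequences elsewhere in the genome that have no probe were not searched. Over the 153 members, blastn found a match of at least 40 bases and 85% identity to a probe of another name for 6 members, with 7 matches in all. Among the 810 Olfr probes that were not members 42 had such a match. In none of the 7 matches was the other probe in 12 or more samples, where 84.1% of all Olfr probes were under 12. The other probe was in 11 samples for Olfr1431 (itself in 16), in 8 for Olfr175-ps1 (in 24) and in 6 for Olfr1269 (in 23). Olfr59 (chr11:74102608-74102667, plus strand) was in 24 of 24 samples, and the probe of the array entry NAP108687-1 (chr11:74130988-74131047, plus strand), which matches it over 58 bases with 4 mismatches, was in 2. Olfr441 (chr6:43066012-43066071, plus strand) was in 16 samples, while Olfr237-ps1 (chr6:43103573-43103632, plus strand), with 3 mismatches over 52 bases, was in 1 and Olfr444 (chr6:42905768-42905827, plus strand), with 4 mismatches over 53 bases, was in 0. Capitals mark the mismatches to the Olfr59 or the Olfr441 probe within the matched stretch.
Olfr59, 24 of 24 samples: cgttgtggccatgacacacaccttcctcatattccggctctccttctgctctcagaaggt
NAP108687-1, 2 of 24 samples: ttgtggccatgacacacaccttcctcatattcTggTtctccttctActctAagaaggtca
Olfr441, 16 of 24 samples: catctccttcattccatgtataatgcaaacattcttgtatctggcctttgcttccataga
Olfr237-ps1, 1 of 24 samples: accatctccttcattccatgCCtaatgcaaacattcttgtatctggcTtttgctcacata
Olfr444, 0 of 24 samples: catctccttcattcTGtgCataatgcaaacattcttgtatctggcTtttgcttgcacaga

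Detection of Olfr probes was the exception in DRG. Of the 963 Olfr probes 584 were well above background in 0 samples and 56 in all 24, and 115 members were in 18 or more samples. Among the 40211 probes of other names 66.7% were in at least 12 samples. Of the other chemosensory receptor families, 15 of 114 vomeronasal type 1 probes (13.2%), 3 of 30 vomeronasal type 2 probes (10%), 2 of 16 taste receptor probes (12.5%), 2 of 4 trace amine-associated receptor probes (50%) and 2 of 5 formyl peptide receptor probes (40%) passed the same rule. Just inside the threshold, 7 probes (Olfr1358, Olfr1393, Olfr190, Olfr197, Olfr689, Olfr704 and Olfr847) were in exactly 12 samples, with means between 4.22 for Olfr190 and 4.47 for Olfr197. Just outside it, Olfr1148 (mean 4.33) and Olfr642 (mean 4.44) were in 11.

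Membership went with base composition. The median GC content was 45% in members, 40% in the other 810 Olfr probes and 38.3% in the 584 that were in 0 samples. With rising GC content the share of Olfr probes that were members was 1.66% at 35% or less, 10.5% over 35 to 40%, 20.3% over 40 to 45%, 50% over 45 to 50% and 61.1% above that. Among probes of other names the share in at least 12 samples also rose, from 49.2% in the lowest of these bins to 84.4% in the highest. By C bases, the share of members was 5.08% of Olfr probes with 11 or fewer and 36.8% of those with 18 or more, whereas by G bases it stayed between 14.1% and 20%. The order by GC content was the same among the 877 Olfr probes that lie near enough to the start of a RefSeq mRNA to fall mostly within coding sequence, where the share was 0.637% in the lowest bin and 63.6% in the highest. These shares are descriptions over probes of 1 array design that share their samples.

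The share of Olfr probes that were members varied between chromosomes. Chromosome 7 held 31 of its 206 Olfr probes as members (15%), chromosome 2 held 30 of 247 (12.1%), chromosome 11 held 21 of 65 (32.3%), chromosome 9 held 18 of 122 (14.8%) and chromosome 10 held 3 of 59 (5.08%). The median distance to the nearest probe of a gene outside the family was 52.4 kb for members and 64.8 kb for other Olfr probes, and 11 members (7.19%) against 47 others (5.83%) had one within 10 kb. By symbol, 147 of the 150 member genes matched the RefSeq gene table of GRCm38.p6. Of these, 4 overlapped a gene outside the family (2.72%, against 2.12% of the other Olfr genes), namely Olfr1507 and Olfr1509 within the span of the T cell receptor alpha locus Tcra, Olfr524 with Cd163l1 and Olfr1358 with Gm47944. Olfr1507, the receptor also known as MOR28, was in 23 samples with a mean of 5.01 and a range of 4.54 to 5.54.

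Most members were dim. Their mean log2 intensity over the 24 samples had a median of 4.91, with 78 of 153 under 5 and 5 at 7 or above. Detection also followed the dye, over all probes as well as in the members. Of all probes 61.5% to 72.3% were well above background in the Cy3 samples and 54.5% to 65.2% in the Cy5 samples. Of the members 87 were flagged in more Cy3 than Cy5 samples and 3 in more Cy5 than Cy3 samples, 91 were in all 12 Cy3 samples and 57 in all 12 Cy5 samples. Per sample, the number of members detected ran from 105 to 152 with Cy3 (median 145) and from 66 to 145 with Cy5 (median 121.5). The sample with 66 was WT control replicate 4, in which 54.5% of all probes were well above background, against 61.1% to 72.3% in the other samples. By group, the median number of members detected was 133 in WT control, 135.5 in KO control, 140.5 in WT day 2, 114.5 in KO day 2, 138 in WT day 5 and 144 in KO day 5. The share of all probes detected at day 2 was 68.1%, 70.2%, 61.1% and 62.6% in the WT samples and 61.5%, 69.7%, 62% and 62.2% in the KO samples.

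The brightest member was Olfr571, and its values divided by slide and not by group. On slide 3 its 8 samples measured 11.28 to 11.61, and the 16 samples on slides 1 and 2 measured 10.06 to 10.89, so the slides did not overlap. By group the same values were 10.10, 10.65, 11.61 and 11.59 in WT control, 10.06, 11.40, 10.23 and 10.66 in KO control, 11.47, 11.36, 10.72 and 10.69 in WT day 2, and 10.697, 10.89, 10.39 and 11.28 in KO day 2. At day 5 they were 10.64, 11.33, 10.62 and 11.57 in WT and 10.62, 10.55, 10.72 and 10.75 in KO. The ranges of the groups overlapped, and no KO day 5 sample was on slide 3. In a fit with group and slide as terms, slide 3 lay 0.90 ± 0.08 (SE) above the mean of slides 1 and 2 (limma, adjusted p = 5.43e-07). This contrast was chosen after the same values had been seen, so its p-value describes the split and does not test it.

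The slides were compared in the other members after the values of Olfr571 had been seen, and the 5 members with a mean of 7 or above were not alike. Olfr279 (A_52_P23366) measured 8.12 to 8.48 on slide 3 and 7.42 to 7.96 on the other slides. Olfr933 measured 8.08 to 9.24 on slide 3 and 6.36 to 7.38 on the others, the largest slide difference of any member at 1.73 ± 0.11 (SE). Olfr175-ps1 was also higher on slide 3 (0.52 ± 0.11, SE, limma adjusted p = 0.00314), but its slides overlapped, at 7.40 to 8.11 on slide 3 and 6.85 to 7.60 on the others. Olfr744, with a mean of 7.21, measured 7.03 to 7.53 on slide 3 and 6.61 to 7.61 on the others (0.14 ± 0.10, SE, adjusted p = 0.393). Just under a mean of 7, Olfr521 was lower on slide 3 (-0.36 ± 0.09, SE, adjusted p = 0.0186). In all, 33 of 153 members (21.6%) differed between slide 3 and the others at an adjusted p under 0.05, 30 of them higher on slide 3, where 11.5% of all probes differed and 16.2% of the detected probes of other names. For 8 members every slide 3 sample lay above every other sample, against 1.61% of all probes. These 8 were Olfr933, Olfr549, Olfr571, Olfr60, Olfr279, Olfr812, Olfr166 and Olfr1026. The slides did not hold the genotypes equally: slide 3 held 6 WT and 2 KO samples, and slides 1 and 2 held 3 WT and 5 KO samples each. The cause of the slide difference was not tested.

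The lesion comparison set day 2 and day 5 against the non-injured side, with the genotypes averaged, and both days share the control samples. At day 2, 10 members differed from control (6.54%), 6 higher and 4 lower, where 21.4% of all probes differed. At day 5, 4 members differed (2.61%), 1 higher and 3 lower, where 22.3% of all probes differed. Among the detected probes of other names the shares were 31.0% and 32.6%. The calls are from limma with Benjamini-Hochberg adjustment over all probes, and covered 12 members, 2 of them on both days. The median difference over all members was 0.09 at day 2 and 0.01 at day 5, beside -0.02 and -0.04 over all probes. Over the Olfr probes that were not members it was 0.065 at day 2 and -0.0035 at day 5. With 1 sample left out in turn the member median ran from 0.05 (without WT control replicate 1) to 0.13 at day 2, and from -0.03 (without WT control replicate 1) to 0.04 (without KO day 5 replicate 1) at day 5, so its sign at day 5 depended on single samples. Without KO control replicate 2 the number called at day 2 was 6.

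Olfr223 was higher on both days. It measured 5.17, 5.44, 5.03 and 5.30 in WT control and 4.97, 5.04, 5.49 and 5.43 in KO control. At day 2 it measured 5.57, 5.57, 5.94 and 5.74 in WT and 6.21, 5.80, 5.84 and 5.56 in KO. At day 5 it measured 5.61, 5.62, 5.84 and 5.81 in WT and 5.38, 5.47, 5.66 and 5.88 in KO. All day 2 samples lay above all controls, and the day 5 samples overlapped the controls only in KO. The difference was 0.55 ± 0.11 (SE) at day 2 (limma, adjusted p = 0.000804) and 0.42 ± 0.11 (SE) at day 5 (adjusted p = 0.00575). Within slides 1, 2 and 3 the difference was 0.61, 0.49 and 0.46 at day 2 and 0.42, 0.24 and 0.55 at day 5. Not all of these averaged the genotypes. Slide 1 at day 2 rested on KO alone, with 1 day 2 sample, and slide 2 at day 5 on KO alone, with 1 control. Slide 3 at day 5 rested on WT alone.

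Olfr1386 was lower on both days. Its control samples measured 6.21, 7.14, 6.87 and 6.55 in WT and 6.40, 6.93, 6.41 and 7.12 in KO. At day 2 it measured 6.59, 6.38, 5.76 and 6.11 in WT and 6.26, 6.66, 5.47 and 6.44 in KO, and at day 5 it measured 6.09, 6.43, 6.16 and 6.31 in WT and 6.15, 6.06, 5.80 and 6.07 in KO. The groups overlapped at both times. The difference was -0.49 ± 0.17 (SE) at day 2 (limma, adjusted p = 0.0455) and -0.57 ± 0.17 (SE) at day 5 (adjusted p = 0.0200). The day 2 call was lost in 18 of the 24 fits that left out 1 sample, and the day 5 call in 0.

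Another 4 members were called at day 2, and stayed so in every fit that left out 1 sample. Olfr920 (chr9:38563710-38563769) had a lowest, median and highest value of 4.65, 5.30 and 5.65 in the 8 controls and 5.62, 5.89 and 6.10 at day 2, a difference of 0.56 ± 0.12 (SE) with limma (adjusted p = 0.00209). Its day 5 samples measured 5.01 to 5.67. Olfr1065 had values of 5.26, 5.52 and 5.83 in control and 4.63, 5.01 and 5.65 at day 2, a difference of -0.49 ± 0.12 (SE) (adjusted p = 0.00597). Olfr1317 (chr2:111982878-111982937) had values of 3.98, 4.14 and 4.79 in control and 4.27, 4.77 and 5.22 at day 2 (0.50 ± 0.13, SE, adjusted p = 0.00791), with the detection flag in 3 of 8 controls and 7 of 8 day 2 samples. Olfr1097 (chr2:86731039-86731098) had values of 4.02, 4.51 and 5.10 in control and 4.65, 4.93 and 5.27 at day 2 (0.50 ± 0.14, SE, adjusted p = 0.0121). The day 2 and control ranges of all 4 overlapped. By genotype, the day 2 differences in WT and KO were 0.66 and 0.47 for Olfr920 and -0.21 and -0.78 for Olfr1065. They were 0.67 and 0.33 for Olfr1317 and 0.55 and 0.45 for Olfr1097. Within 1 genotype Olfr1065 passed the threshold in KO alone (limma, adjusted p = 0.00536, beside 0.553 in WT). Olfr920 and Olfr1317 did so in WT alone, and Olfr1097 in neither. No interaction with genotype was called.

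Olfr1372-ps1 (chr11:51968918-51968977), annotated as a non-coding transcript, was lower at day 5. Its 8 controls measured 5.54 to 5.90 and its 8 day 5 samples 5.16 to 5.51, with no overlap (-0.34 ± 0.10, SE, limma adjusted p = 0.0157). The remaining calls were Olfr1030 (0.32) and Olfr29-ps1 (0.56), both higher at day 2, Olfr397 (-0.54) and Olfr190 (-1.04), both lower at day 2, and Olfr876 (-0.48), lower at day 5, with adjusted p from 0.0251 to 0.0456. Each of these 5 lost its call in 6 to 18 of the 24 fits without 1 sample, and the KO day 2 samples of Olfr190 measured 0.99, 3.05, 4.27 and 4.59 and were well above background in 0 of 4. Without the lowest of these, KO day 2 replicate 1, the Olfr190 difference was -0.66. Olfr190 is also a member at the threshold, in 12 samples.

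Olfr933, on chr9:38783812-38783871, showed a lesion difference once its slides were separated. On slide 3 its controls measured 9.05, 9.24 and 8.97, its day 2 samples 8.56, 8.15 and 8.08 and its day 5 samples 8.19 and 8.09. On slide 1 the controls measured 6.92, 7.30 and 7.21, the day 2 sample 6.88 and the day 5 samples 6.48, 6.36, 6.69 and 6.46. On slide 2 the controls measured 7.24 and 7.38, the day 2 samples 6.41, 6.67, 6.43 and 7.18 and the day 5 samples 6.42 and 6.54. Within each slide the controls lay above all lesion samples, WT and KO together. Without slide in the fit the difference was -0.62 (limma, adjusted p = 0.356) and -1.01 (adjusted p = 0.107), and the day 2 value was -0.41 without KO control replicate 2. With slide as a block it was -0.63 (adjusted p = 0.000666) and -0.79 (adjusted p = 3.71e-05). This fit was looked at after the values by slide had been seen.

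Marker lists of other cells were summed per sample, as the log2 of their added intensities. For 5 macrophage markers this level was 9.89 to 10.92 in control, 10.50 to 11.48 at day 2 and 11.71 to 12.33 at day 5, so that all day 5 samples lay above all controls. For 5 Schwann cell markers it was 16.04 to 16.68 in control, 16.18 to 17.62 at day 2 and 16.10 to 16.69 at day 5, with overlap at both times. Their part in the differences above was not tested. In whole ganglia fewer cells of a type and less RNA per cell cannot be told apart.

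The genotype comparison set KO against WT at each time. No member differed between KO and WT at an adjusted p under 0.05 with limma, where 0% of all probes did so in control, 0.0121% at day 2 and 0.0121% at day 5. At an unadjusted p under 0.05 there were 2 members in control (1.31%, beside 1.77% of all probes), 7 at day 2 (4.58%, beside 3.86%) and 3 at day 5 (1.96%, beside 2.42%). The median difference over members was -0.05, -0.07 and -0.10 in this order, beside 0.01, 0.01 and 0.02 over all probes. Over the Olfr probes that were not members it was -0.07, -0.07 and -0.05, so the shift was not particular to the members. Single samples moved the medians over members by more than 1.5 times. They ran from -0.15 (without WT control replicate 1) to -0.02 (without WT control replicate 3) in control, from -0.10 (without WT day 2 replicate 2) to -0.03 (without KO day 2 replicate 3) at day 2 and from -0.14 (without KO day 5 replicate 3) to -0.04 (without KO day 5 replicate 1) at day 5. With slide as a block the medians over members were -0.02, -0.00 and -0.08. The unadjusted 95% interval of a member's difference reached 0.48 to either side for the median member, so smaller differences could not be told from 0. With adjustment over all probes larger differences went uncalled too, such as -0.96 for Olfr741 at day 2 (limma, adjusted p = 0.9999). The lack of calls therefore sets no limit of 0.48 on the members. The comparison of the controls also missed the deleted gene. The brighter *Nfil3* probe had a KO minus WT difference of -3.98 ± 0.81 (SE) there (limma, adjusted p = 0.9999). The other *Nfil3* probe (A_51_P111492) had -3.22 ± 0.56 (SE, adjusted p = 0.2532). Both probes were called on each lesion day. The lack of calls among the controls therefore cannot show that members or other genes were equal between genotypes.

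The members with the smallest unadjusted p were Olfr1497 in control, Olfr741 at day 2 and Olfr62 at day 5. Olfr741 at day 2 measured 5.05, 4.79, 5.32 and 4.67 in WT and 3.94, 3.78, 3.75 and 4.54 in KO, with no overlap (-0.96 ± 0.30, SE, limma unadjusted p = 0.00485, adjusted p = 0.9999). In control its values overlapped, at 4.42, 4.06, 4.99 and 4.92 in WT and 4.34, 4.82, 4.02 and 3.87 in KO. Olfr1497 in control measured 3.99, 4.30, 4.37 and 4.19 in WT and 4.26, 4.97, 4.88 and 4.42 in KO (0.42 ± 0.19, SE, unadjusted p = 0.0356). Olfr62 at day 5 measured 4.45, 5.19, 4.85 and 5.16 in WT and 3.77, 4.22, 4.82 and 4.23 in KO (-0.65 ± 0.24, SE, unadjusted p = 0.0132). Both of these overlapped between genotypes.

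For the interaction of time and genotype 0 members were called, as were 0% of all probes. Neither *Nfil3* probe was called, so this cannot show that members responded alike in both genotypes. An unadjusted p under 0.05 was found for 0 members, beside 2.21% of all probes. The smallest was that of Olfr397 (unadjusted p = 0.0531 with limma). It fell by 1.01 from control to day 2 in KO and measured -0.07 for the same difference in WT, with KO day 2 values of 2.87, 3.40, 4.03 and 3.80 and WT day 2 values of 4.56, 4.78, 4.37 and 3.66.

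A member can be absent from a group and still be in 12 samples. This was so for 4 members, and 149 carried the detection flag at least once in every group. Olfr1317 had the flag in 0 of the WT controls, at 4.05, 4.18, 4.03 and 4.11, and had it in 3 KO controls, at least 1.19-fold higher (limma adjusted p = 0.9999). Olfr1255 had it in 0 of the KO day 2 samples, at 3.59, 3.99, 4.71 and 4.66, and was in all WT day 2 samples, at 4.37, 4.75, 5.01 and 5.00, at least 1.46-fold higher (adjusted p = 0.9999). Olfr78 was in 0 of the KO controls, at 3.94, 3.69, 3.98 and 4.08, and in all 8 day 5 samples. Its 2 highest values, 6.39 in WT control replicate 4 and 6.48 in WT day 5 replicate 2, came from the same array. No other Olfr78 value was above 5.29.

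Most but not all listed genes of the pathway that odorant receptors use in the nose were detected in DRG. A list of 36 symbols of this pathway was chosen with earlier results of these data known. It had 31 on the array, of which 24 were in at least 12 samples and 20 in all 24, by the brightest probe of each gene. Over all probes 65.5% were in at least 12 samples, and 21643 of 41174 were in all 24. Of the unmatched symbols Grk3 and Aof2 are other names of Adrbk2 and Kdm1a, which were measured. Gnal, the channel subunits Cnga2 and Cngb1 and the G protein gamma subunit Gng13 were in 24 samples, Adcy3 and the receptor transporter Rtp1 in 23, and Omp, the olfactory marker protein of mature sensory neurons of the nose, in 14. The chloride channel Ano2, the transporter Rtp2 and the cilia protein Stoml3 were in 0 samples. Outside the members, all probes of Olfr65, Olfr125, Olfr551, Olfr914, Olfr1270 and Olfr1330 were in 0 samples, as were 584 of all 963 Olfr probes. These genes are named because the study lists them among the genes regulated differently in KO.

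Among the 31 list genes 7 differed from control at day 2 (3 higher, 4 lower) and 10 at day 5 (4 higher, 6 lower), with 1 probe taken per gene, where 21.4% and 22.3% of all probes differed. Of the detected probes with names other than Olfr 31% and 32.6% differed, so the list did not exceed them clearly on either day. The phosphodiesterase Pde1c ranged from 7.72 to 8.05 in control, 8.54 to 9.09 at day 2 and 8.76 to 9.50 at day 5, which gave differences of 0.99 (limma, adjusted p = 5.35e-07) and 1.35 (adjusted p = 4.3e-09). The phosphodiesterase Pde4a was lower, at 6.90, 7.24 and 7.43 in control, 6.07, 6.37 and 6.80 at day 2 and 6.36, 6.51 and 6.69 at day 5, with differences of -0.84 (adjusted p = 7.89e-06) and -0.71 (adjusted p = 4.43e-05). For both genes no lesion sample overlapped the controls. Kirrel3, an adhesion molecule of olfactory axons, was lower on both days (-0.80 and -0.93), as was the receptor kinase gene Adrbk2 (-0.58 and -1.01), and Kdm1a, a histone demethylase in receptor choice, was higher (0.23 and 0.21).

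At day 5 alone Gnal (-0.50), the transcription factor Ebf1 (-0.41) and the adhesion molecule Ncam2 (-0.47) were lower and Atf5, a transcription factor induced by receptor expression in the nose, was higher (0.58). At day 2 alone the beta subunit Gnb1 was lower (-0.31). Lhx2, a transcription factor of receptor choice, was called higher on both days but was well above background in only 2 of 24 samples, both at day 5, where it was at least 1.21-fold above control. No list gene differed between KO and WT at an adjusted p under 0.05 at any time with limma, and at an unadjusted p under 0.05 there were 0 in control, 2 at day 2 and 0 at day 5.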

How the data were processed

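DRG RNA was measured on 12 Agilent whole mouse genome arrays of 3 slides, with a different sample in each channel. Scans were read by the authors in Feature Extraction 10.7.3.1, who deposited, for each of 45018 spots and both channels, foreground and background intensity values without normalization and flags. Coordinates are those of the files (mm9). As the study's methods state, intensities were corrected with the Edwards method and quantile normalized over the 24 channels (mean foreground, median background). Control and outlier spots were left out, spots of a probe were averaged and log2 values were used. Feature Extraction's processed signals, which the authors deposited as intensity after its own background and dye correction, were an alternative only.

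A probe was counted as well above background in a sample if most of its spots, or an equal number, carried the flag of that sample's channel. Samples were grouped by title and source name. The linear model, in which each group had its own mean, was run in R 4.3.3 with limma 3.58.1 (lmFit, eBayes) and statmod 1.5.0, and p-values were Benjamini-Hochberg adjusted over 41174 probes, threshold 0.05. The fit was tested on simulated data. The 4 samples per group are independent replicates per the study's methods. The 2 samples of an array, from different groups or genotypes, share its spots. The main fit did not model this, and the correlation within arrays was estimated at 0.262. For probes that lacked the flag throughout a group, the fold change is a bound from the lowest signal well above background on each array. Probe sequences were compared with blastn 2.17.0. Alternatives changed the background correction, normalization, filter, covariates and samples.

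The members and gene lists were chosen with earlier results of these data known. Named were *Nfil3*, members called after the lesion, the 4 brightest members, members with a second probe or a near match, the members with the smallest genotype and interaction p, members at or just under the threshold, members not detected in a group or overlapping another gene, and list genes that passed. Olfr genes that the study lists as regulated differently in KO were given by their detection only. The slide comparison was added after the values were seen. Replicate numbers were not used to pair the samples in the main fit. Whether a control and a lesion sample came from the same mouse was not known, and the lesion comparisons were fitted unpaired. Single list genes were represented by their brightest probe.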

Additional observations from a re-analysis of the deposited data

Results flagged for a closer look

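In groups of 4, a sample was singled out where its distance to the nearest other sample took up more of the group's range than Dixon's 95% critical value allows. This was checked in 108 groups, namely the 12 members called after the lesion, the 4 brightest members, the number of members detected and the median over members, and 4 groups were found, where chance gives about 1 in 20.

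Olfr1372-ps1 measured 4.95 in WT day 2 replicate 3, beside 5.52 to 5.62 in the other WT day 2 samples. Olfr876 measured 4.46 in WT day 5 replicate 3, beside 4.02 to 4.03. Olfr933 measured 8.97 in KO control replicate 2, beside 7.21 to 7.38, and this is the only KO control on slide 3. In KO day 5 replicate 4, 123 members were well above background, beside 143 to 145 in the other KO day 5 samples.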

How the results depend on the processing

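Under 13 other settings the number of members called at day 2 was 8 to 12 and at day 5 it was 3 to 7, the 7 with slide as a block. Leaving out 1 sample gave 6 to 11 at day 2 and 3 to 6 at day 5. The numbers of members called for KO minus WT and for the interaction were 0 under all of these, and with each sample left out. The list of olfactory signalling genes gave 7 to 8 at day 2 and 9 to 11 at day 5, and 7 to 10 and 10 to 11 with a sample left out. With samples of 1 dye alone, which leaves 2 per group, Cy3 gave 3 members at day 2 and 1 at day 5 (list genes 3 and 4) and Cy5 gave 1 and 0 with limma (list genes 2 and 2). Leaving out both samples of the array of WT control replicate 4 gave 9 and 5 members. With the replicate number as a replicate block there were 11 and 4 members. Same-numbered samples correlated between -0.06 and 0.21, with 13 of 60 pairs over 0.1 and 11 of 24 samples correlating best with their own number. Of the pairs with other numbers but the same dye 13 of 60 were also over 0.1. These values cannot show whether samples came from the same mouse.

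Of the 14 differences called in single members none changed its sign. All 14 stayed called with dye as a covariate, with outlier spots kept, with the filter on dim probes and with an intensity trend, 12 with slide as a block, 10 without background correction and 9 with the processed signals. With array as a random block 12 of the 14 stayed called. Without 1 sample, 263 of 336 values stayed called. Olfr933 passed the threshold only with slide as a block, among these alternatives.

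The number of member probes was 379 with detection in at least 1 sample, 200 in at least 6, 115 in at least 18 and 56 in all 24, and 432 with the flag for a positive and significant signal in place of well above background. The median difference over members at day 2 was 0.04 without background correction and 0.17 with the processed signals.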
